A study of Mus musculus with 4 samples.

Results

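In 3 unsorted single-cell libraries of mouse ventromedial prefrontal cortex, 608 of 19472 filtered cells carried at least 5 unique molecular identifiers (UMIs) of Gpr17, Enpp6 and Bmp4 together and passed a gate for committed oligodendrocyte precursors. The gate counted UMIs, the molecules read per gene and cell. It also required at least 1 UMI of Olig1, at most 2 UMIs of Slc17a7, Gad1 and Gad2 together, at most 2 of Cldn5 and at most 2 of Cx3cr1 and P2ry12 together, and it took only cells absent from the study's table of excitatory neurons. Members were thus chosen by their own measured UMIs of these genes. Before the gate, cells outside the limits of 500 and 8000 detected genes or of 1000 and 60000 UMIs were dropped, as were those at or above a mitochondrial share of 20%. The gate held 200, 222 and 186 cells in replicates 1, 2 and 3, which was 3.13% ± 0.338 of filtered cells (SD, n = 3 libraries) and 18.1% ± 1.29 of the cells of the 3 lineage stages compared below. The gated cells were set beside 1135 precursors and 1619 mature cells, all with fewer than 5 UMIs of the gate trio. Precursors had at least 3 UMIs of Pdgfra and Cspg4 together and fewer than 8 of Mog, Mag, Ermn and Cldn11 together. Mature cells had at least 8 UMIs of those 4 genes and fewer than 3 of Pdgfra and Cspg4. Gated cells that also met one of these limits were kept as gated cells only.

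All libraries came from male C57BL/6 mice, labelled as 8 weeks old, which the methods give as the age at injection. The methods place the killing of the mice some weeks after injection, so the mice were older than 8 weeks at dissociation. The mice were injected on one side with retrograde rAAV-EGFP viruses, each with its own barcode, into the agranular insular cortex, dorsomedial striatum, mediodorsal thalamus, basolateral amygdala and lateral hypothalamus. Each unsorted library is labelled as 1 mouse, and the methods give the recovered cells mouse by mouse. The wording of the design could still be read as 3 mice pooled and loaded in 3 lanes. The SD and p-values below measure the spread between these 3 libraries, which would then be technical. Prelimbic and infralimbic tissue was dissected, dissociated with papain and loaded without sorting. A further library pooled 3 mice and was sorted for EGFP before loading, which selects labelled neurons. There was no uninjected group, so every cell described here came from an injected brain.

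Oligodendrocyte precursors divide and persist in the adult cortex, and some leave the cell cycle to become myelinating oligodendrocytes. Between these stages lies a short-lived committed cell that no longer carries Pdgfra and does not yet make compact myelin. Gpr17, a G protein-coupled receptor, and Bmp4, a secreted ligand of the BMP family, are known for marking early committed cells, and Enpp6, a choline phosphodiesterase, for marking newly forming oligodendrocytes.

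The promoter-side sequence of 2 genes that were higher in gated cells than in both compared stages is shown, because each holds the E-box CAGCTG in that stretch, a motif bound by basic helix-loop-helix factors such as the Olig proteins. The genes were picked after the motif search. The sequences are the 250 bases before the annotated start, on the gene's strand, from RefSeq on GRCm38.p6, with the E-box in capitals.
9630013A20Rik, minus strand, chr14:84476425-84476674: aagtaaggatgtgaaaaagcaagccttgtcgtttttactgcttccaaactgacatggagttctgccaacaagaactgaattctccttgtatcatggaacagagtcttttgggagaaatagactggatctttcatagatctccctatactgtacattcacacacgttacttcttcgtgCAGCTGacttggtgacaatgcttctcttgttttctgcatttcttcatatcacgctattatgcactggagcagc
Matn1, plus strand, chr4:130944135-130944384: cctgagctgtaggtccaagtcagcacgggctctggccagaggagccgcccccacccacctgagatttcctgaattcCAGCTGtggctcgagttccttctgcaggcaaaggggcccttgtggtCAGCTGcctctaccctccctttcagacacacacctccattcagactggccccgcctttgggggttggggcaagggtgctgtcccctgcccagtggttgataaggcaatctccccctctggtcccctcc
The E-box began 73 bases before the start of 9630013A20Rik, and 174 and 128 bases before the start of Matn1. Of the 20 genes by which neither-limit members (defined below) most exceeded both stages, 19 were found in the promoter table, with 24 windows. CAGCTG, which reads the same on both strands, was in 7 of the 24 windows, against 13.0% of all 32851 promoter windows of the same length. The Sox-type motif ACAAAG, read as CTTTGT on the other strand, was in 3 windows, against 16.5% of all. The Tcf/Lef-type motif TCAAAG, read as CTTTGA on the other strand, was in 4, against 13.8% of all. These matches describe the letters only.

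At full depth most gated cells still carried the markers of the precursor stage, so the label of committed cells did not describe the gate as a whole. Of the 608 cells, 468 also met the precursor limit of at least 3 UMIs of Pdgfra and Cspg4, which was 76.9% ± 1.45 of each library's gated cells (156, 172 and 140 cells). Another 85 met the mature limit, 14.1% ± 2.18 (32, 26 and 27 cells). Only 48 met neither limit, 7.91% ± 2.16 (11, 19 and 18 cells), and 7 met both. They are called precursor-limit, mature-limit and neither-limit members below. This make-up changed when every cell was first thinned at random to 2000 UMIs and the gate and limits were then applied. Of the 146 cells gated that way, 43.3% ± 4.80 met the precursor limit, 49.4% ± 8.36 neither limit and 7.21% ± 3.86 the mature limit. The gate chose these cells on the values of its own genes, so the levels of those genes in the next paragraphs are descriptions and were not tested.

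**Figure D1:**
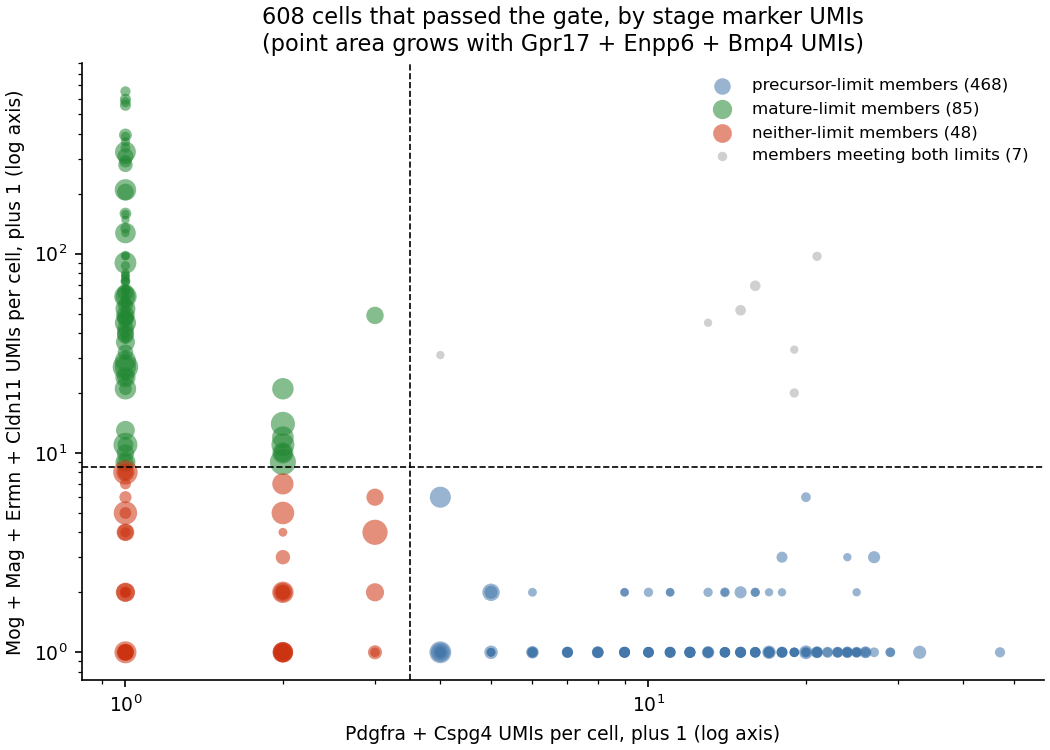
Each of the 608 gated cells by its UMIs of the precursor limit genes (x axis) and of the mature limit genes (y axis), plus 1 on log axes, with the area of a point growing with its trio UMIs. Dashed lines mark the limits of 3 and 8 UMIs, and the 7 cells beyond both lines are the smallest of the 4 sets.

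**Figure D2:**
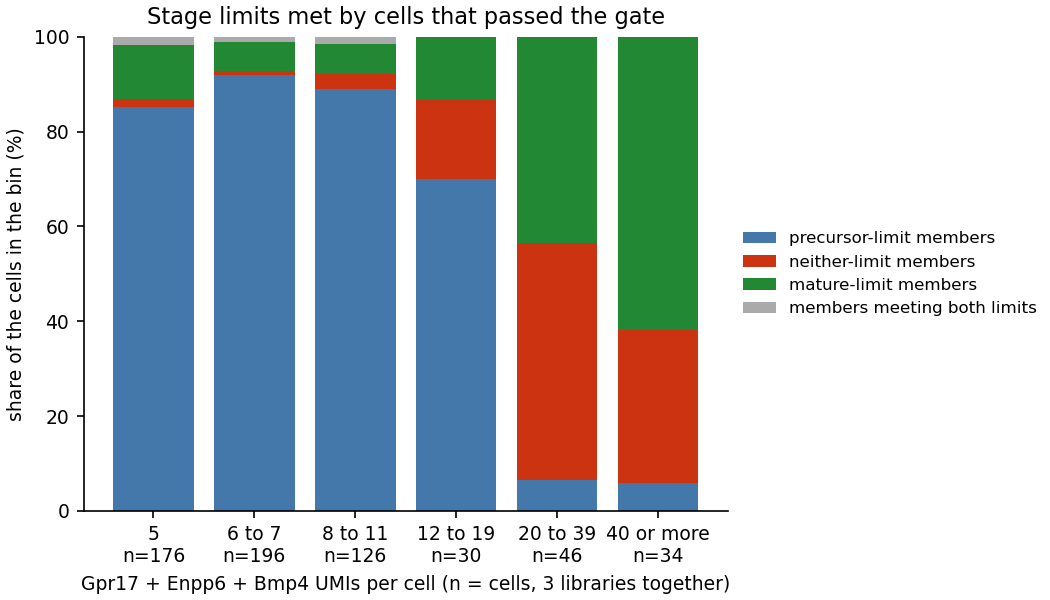
Make-up of the gated cells by the summed UMIs of Gpr17, Enpp6 and Bmp4 in a cell, as percentages of cells in each bin that met the precursor limit, neither limit, the mature limit or both. From 5 to 19 UMIs at least 70.0% of cells met the precursor limit, and from 20 UMIs upward the share was 6.52% or less.

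The make-up changed with the number of trio UMIs. Of the 176 cells with exactly 5 trio UMIs, 85.2% met the precursor limit, and of the 126 cells with 8 to 11 UMIs 88.9% did. Among the 46 cells with 20 to 39 UMIs, 6.52% met the precursor limit, 50.0% neither limit and 43.5% the mature limit. Among the 34 cells with at least 40 UMIs, 5.88% met the precursor limit, 32.4% neither and 61.8% the mature limit. Just inside the threshold, the 176 cells with 5 UMIs had 269 UMIs of Fyn and 200 of Bcas1 per 1000000 summed UMIs. Just outside it, 223 cells with 4 UMIs had 277 for Fyn and 167 for Bcas1. In both sets most cells met the precursor limit (150 and 203 cells).

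The 3 marker genes reached the gate in different members. Gpr17 was present in 574 of 608 gated cells and was the only gene of the trio in 419. Enpp6 was present in 125 cells, Bmp4 in 135, and both in 71. Levels are given as CPM, the UMIs of a gene per 1000000 UMIs summed over the cells of one group in one library, in the order of replicates 1, 2 and 3.

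Gpr17 stood at 542, 510 and 511 CPM in precursors. In precursor-limit members it was 1520, 1536 and 1459, and in neither-limit members 4214, 4264 and 3931. It was 806, 900 and 656 in mature-limit members and 5.12, 4.73 and 3.79 in mature cells. Precursors thus held Gpr17 in every library, below all gated groups, and its level was highest in the neither-limit members with no overlap between groups.

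Enpp6 was 8.40, 11.3 and 4.41 CPM in precursor-limit members. In neither-limit members it was 853, 656 and 615, and in mature-limit members 1091, 1062 and 857, so all 3 mature-limit libraries lay above the neither-limit ones, the closest by a narrow margin. Mature cells still held 64.9, 86.9 and 72.0. Bmp4 was 23.8, 50.4 and 54.4 in precursor-limit members. It reached 595, 851 and 843 in neither-limit members and was 230, 263 and 248 in mature-limit members. Bmp4 was thus highest in neither-limit members and Enpp6 in mature-limit members, in each of the 3 libraries.

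The label was set beside a marker of the lineage. Sox10, a factor of the whole lineage that the gate did not use, was 344 ± 41.5 CPM in neither-limit members, 378 ± 26.8 in precursor-limit and 314 ± 66.2 in mature-limit members (SD, n = 3), and it was 347 ± 35.5 in precursors and 274 ± 15.7 in mature cells. Pdgfra, the growth factor receptor of precursors and one of the limit genes, had 2 UMIs in all neither-limit members and 0 in all mature-limit members, and Mog and Ermn, late myelin genes of the mature limit, had 5 and 0 UMIs in neither-limit members. The cut itself keeps these genes low, so their levels describe it and do not check the label.

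The groups differed in depth. The median cell held 4534.5 UMIs among precursor-limit, 5102.5 among neither-limit and 9345 among mature-limit members, against 3933 in precursors and 4718 in mature cells. The lists of markers of other cell types hold none of the genes that the gate capped, but the caps had already removed cells rich in those types' RNA. Over the whole lists in gated cells, neuron markers stood at 236 ± 14.7 CPM (1 of 10 at 0), microglia markers at 95.4 ± 27.8 (0 of 8 at 0) and endothelial markers at 56.4 ± 4.80 (1 of 7 at 0). They were 10288, 33886 and 14194 in the neurons, microglia and endothelial cells of the same libraries. These sums are over all gated cells, of whose 3483037 UMIs the neither-limit members held 239249. They say little about RNA of other cell types in those members. Astrocyte markers, many of which precursors also express, were 830 ± 50.8 in gated cells and 1369 ± 13.0 in precursors. Dissociation and stress genes summed to 8259 ± 1050 CPM in precursor-limit, 6048 ± 1235 in neither-limit and 2749 ± 79.9 in mature-limit members, against 7719 ± 602 in precursors and 2434 ± 66.6 in mature cells, and their part in the results was not tested. Doublets were not called, and their part in the results was not tested. The unsorted libraries shared 30, 26 and 11 barcodes in pairs, and none was a gated cell in both.

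The first question of the design was how all gated cells differed from each compared stage. Against precursors, 637 of 11139 genes were called, meaning a Benjamini-Hochberg adjusted p under 0.05 in edgeR and a change of at least 1 on the log2 scale. That was 5.72% of genes, with 539 higher in gated cells (4.84%) and 98 lower (0.88%). DESeq2 called 488 higher and 28 lower, scaling by plain library totals gave 464 and 153, and thinning to 2000 UMIs left 244 and 22. Of 34 myelin and mature cell genes tested, 32 were called higher. Since the mature-limit members were pooled with the others here, those genes are given by group below. The 3 genes that the naming rule gave as lower were Rasl11a, Sall3 and Cpne8, each by a log2 change between -1.25 and -1.04. With a gate of at least 3 UMIs all 3 lost their calls, at -0.94, -0.64 and -0.66, and after thinning every cell to 2000 UMIs Sall3 (-0.77) and Cpne8 (-0.83) did. Cpne8 was also not called without replicate 1 (-0.90) or replicate 3 (-0.92). Of 24 cell cycle genes tested, 10 were called lower and 0 higher.

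Against mature cells, 3745 genes were called (33.6%), 2516 higher (22.6%) and 1229 lower (11.0%). These changes use TMM scaling, which sets libraries to a common level by the bulk of their genes. Mature cells had scaling factors of 0.757 to 0.768 and gated cells of 1.09 to 1.11, so fitted changes against mature cells lie below the ratios of the CPM. With plain library totals the median change of all genes moved from 0.04 to 0.57, and 3666 genes were called higher and 631 lower. All 30 precursor genes tested were called higher in the gated cells, as were 13 of 17 Notch pathway genes, and 31 of 34 myelin genes were called lower. Neu4, a sialidase, was 399, 433 and 433 CPM in gated cells and had 2 UMIs in all mature cells. Vcan, a matrix proteoglycan, differed by 8.70 (SE 0.14), and Tnr, the matrix protein tenascin-R, by 8.56 (SE 0.12), each higher in 3 of 3 libraries. Ptgds, prostaglandin D synthase, was lower, with a log2 change of -4.59 (SE 0.07), as was Il33, a nuclear cytokine of mature oligodendrocytes, with -5.46 (SE 0.09).

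Among genes called higher in gated cells than in both stages, the leading gene by the naming rule was 9630013A20Rik, an RNA gene annotated as antisense, from 84458639 to 84476424 of chromosome 14 (GRCm38, GENCODE vM21, minus strand). Whether reads of the opposite strand were kept apart in the counting is not given in the sources used here. Cnksr3, a scaffold protein, Frmd4a, a FERM-domain protein, and Rras2, a Ras-family GTPase, followed. Further down stood the transcription factors Mycl and Tcf7l2, the kinase Fyn, the adhesion proteins Matn1 and Mpzl1, the focal adhesion protein Tns3 and the microtubule protein Map1b. The members behind these means were unlike each other, as the levels by group show.

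The members were then compared by the limits they met, in a second fit over 5 groups that was chosen after the data were seen. The groups were cut on UMIs of the same cells, so a gene whose UMIs move with Pdgfra, Cspg4 or the myelin limit genes from cell to cell moves with the cut as well. The first question was whether the 468 precursor-limit members differed from precursors with fewer trio UMIs. Few genes passed, with 5 of 10024 called (0.0499%), 1 higher (0.00998%) and 4 lower (0.0399%), and 670 genes at an unadjusted p under 0.05. DESeq2, which gave no adjusted p to 8551 of these genes, called only Tmem88b, named here after its value was seen. The gene called higher was Slc27a3, a fatty acid transport protein, at 26.6, 35.3 and 39.7 CPM against 15.0, 14.2 and 18.4, a log2 change of 1.09 (SE 0.28, edgeR adjusted p = 0.042). That call was lost without any one of the 3 libraries, at adjusted p from 0.12 to 0.52. Those called lower were Vtn, Top2a, Atad2 and Kctd1. Of these calls, Kctd1 was lost without any one library (adjusted p from 0.14 to 0.45), Top2a without replicate 1 (0.067) or 2 (0.22), Atad2 without replicate 2 (0.76) and Vtn without replicate 1 (0.12). Vtn, vitronectin, marks mural cells, and its precursor level was uneven, at 58.1, 1.29 and 24.3.

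With no fold limit, 37 genes passed the adjusted p in this comparison, 27 higher and 10 lower, the 5 called genes among them. Bcas1, a protein of myelin-forming cells, was 258, 248 and 242 CPM in precursor-limit members and 161, 157 and 155 in precursors. The ranges did not overlap, and the log2 change was 0.67 (SE 0.10, edgeR adjusted p = 4.7e-06). Mycl, a factor of the Myc family, rose by 0.86 (SE 0.16, adjusted p = 0.00072), Lims2, a focal adhesion protein, by 0.58 (SE 0.09, adjusted p = 4.7e-06), and the cell cycle inhibitor Cdkn1c by 0.74 (SE 0.14, adjusted p = 0.00034). After thinning to 2000 UMIs, Mycl (0.87, edgeR adjusted p = 0.12) and Cdkn1c (0.69, adjusted p = 0.18) no longer passed. Bcas1 (adjusted p = 0.0093) and Lims2 (adjusted p = 0.014) still did. Ccnd1, cyclin D1, fell by 0.45 (SE 0.08, adjusted p = 8.4e-05), from 817, 865 and 892 to 659, 616 and 602. Cspg5 and Ptprz1, both abundant in precursors, differed from precursors by -0.12 (SE 0.08, adjusted p = 0.89) and 0.04 (SE 0.08, adjusted p = 0.99).

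**Figure D3:**
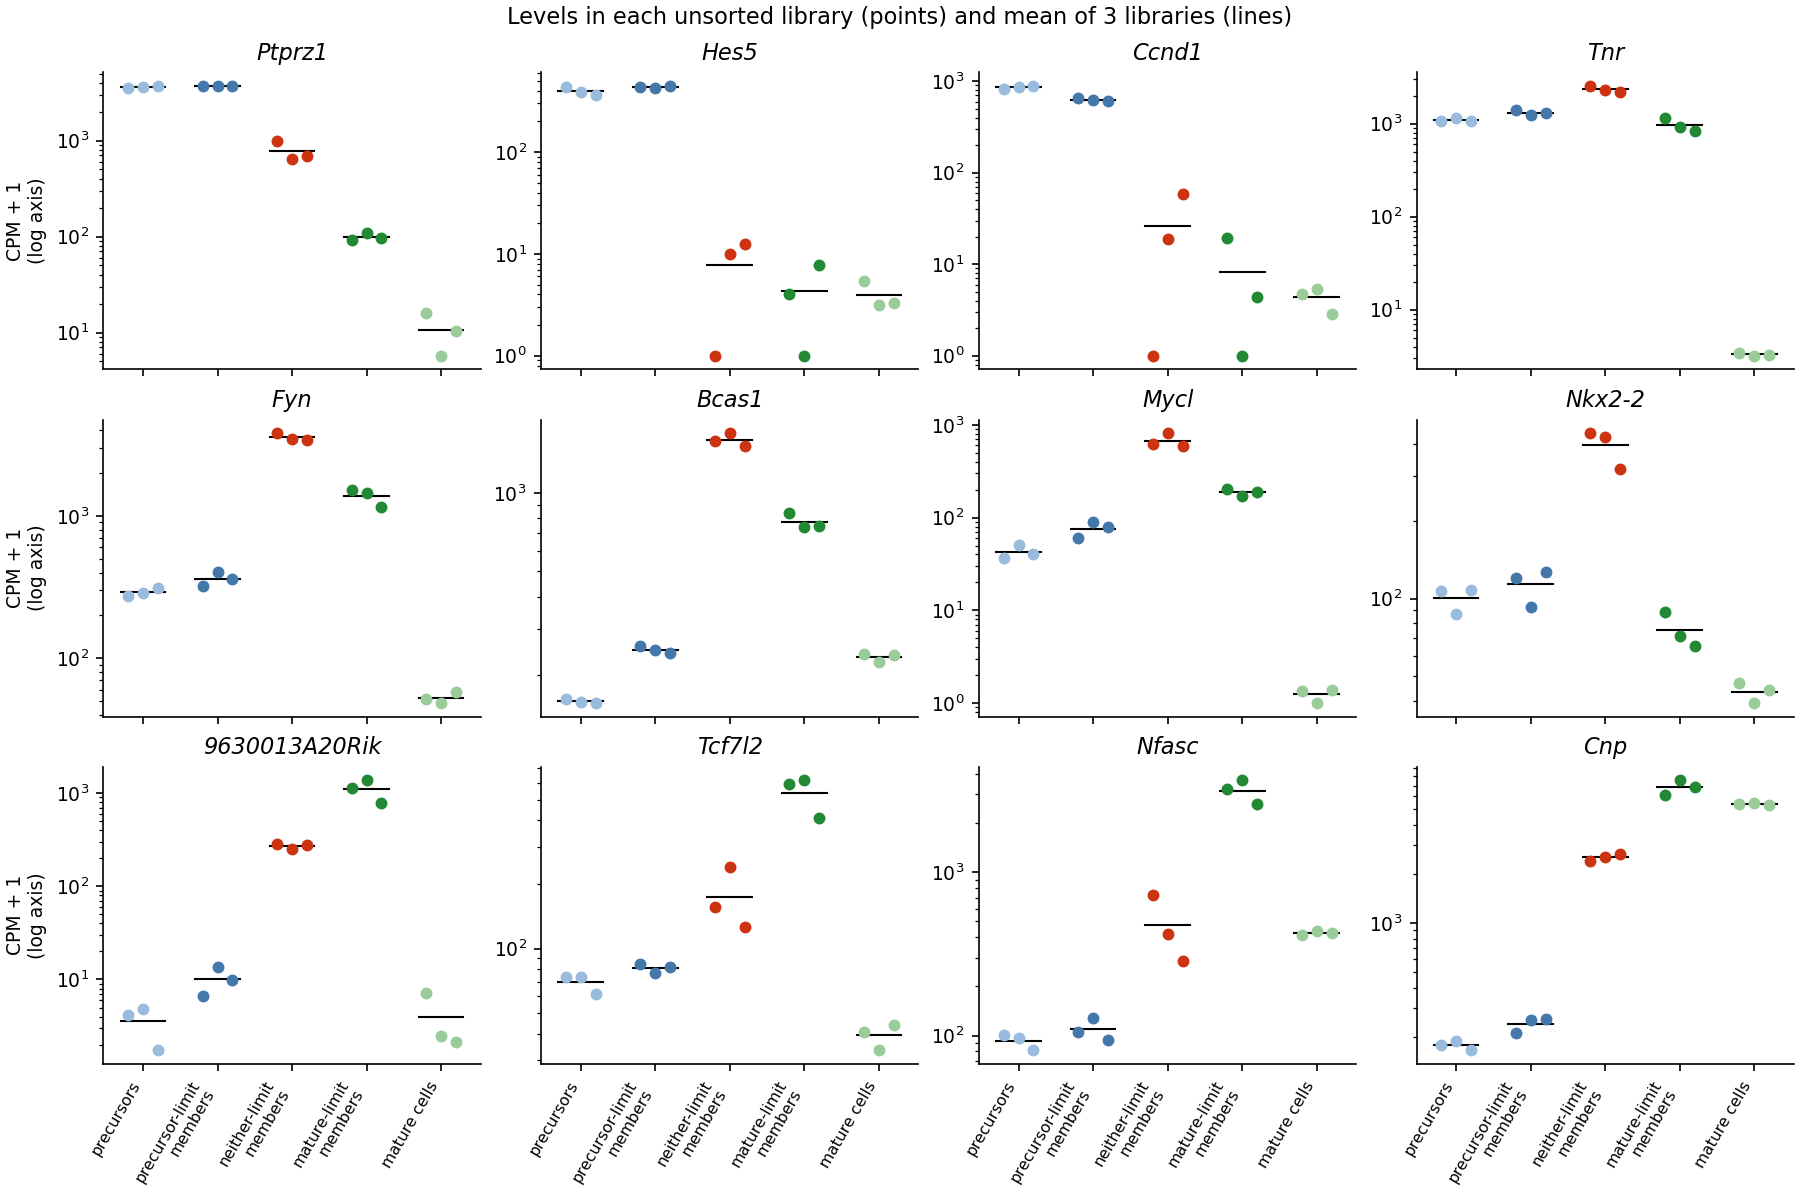
Levels in CPM plus 1 (log axis) of 12 genes in precursors, precursor-limit, neither-limit and mature-limit members and mature cells, with 1 point per unsorted library and a line at the mean of the 3. Fyn, Bcas1 and Mycl are highest in neither-limit members, and 9630013A20Rik, Tcf7l2 and Nfasc in mature-limit members.

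The 48 neither-limit members differed from precursors at 1141 of 10024 genes (11.4%), 377 higher (3.76%) and 764 lower (7.62%). DESeq2 called 401 higher and 486 lower. From mature cells they differed at 2702 genes (27.0%), 1223 higher (12.2%) and 1479 lower (14.8%), and there DESeq2 turned the split, with 1560 higher and 1102 lower. Plain library totals also turned it, with 2194 higher and 741 lower, and moved the median change of all genes from -0.16 to 0.53. Only 11 cells of replicate 1, with 38677 UMIs in all, stand behind its values. Without replicate 2, which held the most of these cells, 711 genes were called against precursors.

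Fyn, a Src-family kinase with a known role in oligodendrocyte morphology, was 3801, 3449 and 3395 CPM in neither-limit members. It was 272, 287 and 309 in precursors, 1506, 1438 and 1160 in mature-limit members and 50.6, 47.7 and 57.2 in mature cells. The gene spans 39368855 to 39565381 of chromosome 10 (GRCm38, plus strand). No group overlapped the neither-limit members, which exceeded precursors by 3.52 (SE 0.10, edgeR adjusted p = 3.0e-61) and mature cells by 5.38 (SE 0.11, adjusted p = 1.5e-75) on the log2 scale. Bcas1 was 1577, 1693 and 1504, above precursors by 3.28 (SE 0.12, adjusted p = 3.1e-49) and above mature cells, at 240, 224 and 237, by 2.09 (SE 0.11, adjusted p = 6.6e-36).

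Mycl was 621, 816 and 592 CPM in neither-limit members and 35.6, 49.6 and 39.1 in precursors, a log2 change of 3.97 (SE 0.18, adjusted p = 2.0e-39). It was 203, 170 and 187 in mature-limit members, lower than in neither-limit members with a change of -1.44 (SE 0.17, adjusted p = 3.3e-12). Matn1, a matrix protein named matrilin, had 233, 372 and 160 in neither-limit members and 15.0, 14.8 and 5.89 in precursors, a change of 4.37 (SE 0.33, adjusted p = 3.6e-22). It was listed with 0 UMIs in mature cells, and 3 UMIs over that group as a floor make it at least 706-fold higher in neither-limit members. Gp1bb, a platelet glycoprotein chain, was 129, 70.9 and 68.4 against 1.87, 0 and 1.47 in precursors, a change of 6.05 (SE 0.75, adjusted p = 5.4e-11). These genes were lower in precursors and in mature cells than in neither-limit members in all 3 libraries. Matn1 and Mycl were also called higher in mature-limit members than in mature cells.

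**Figure D4:**
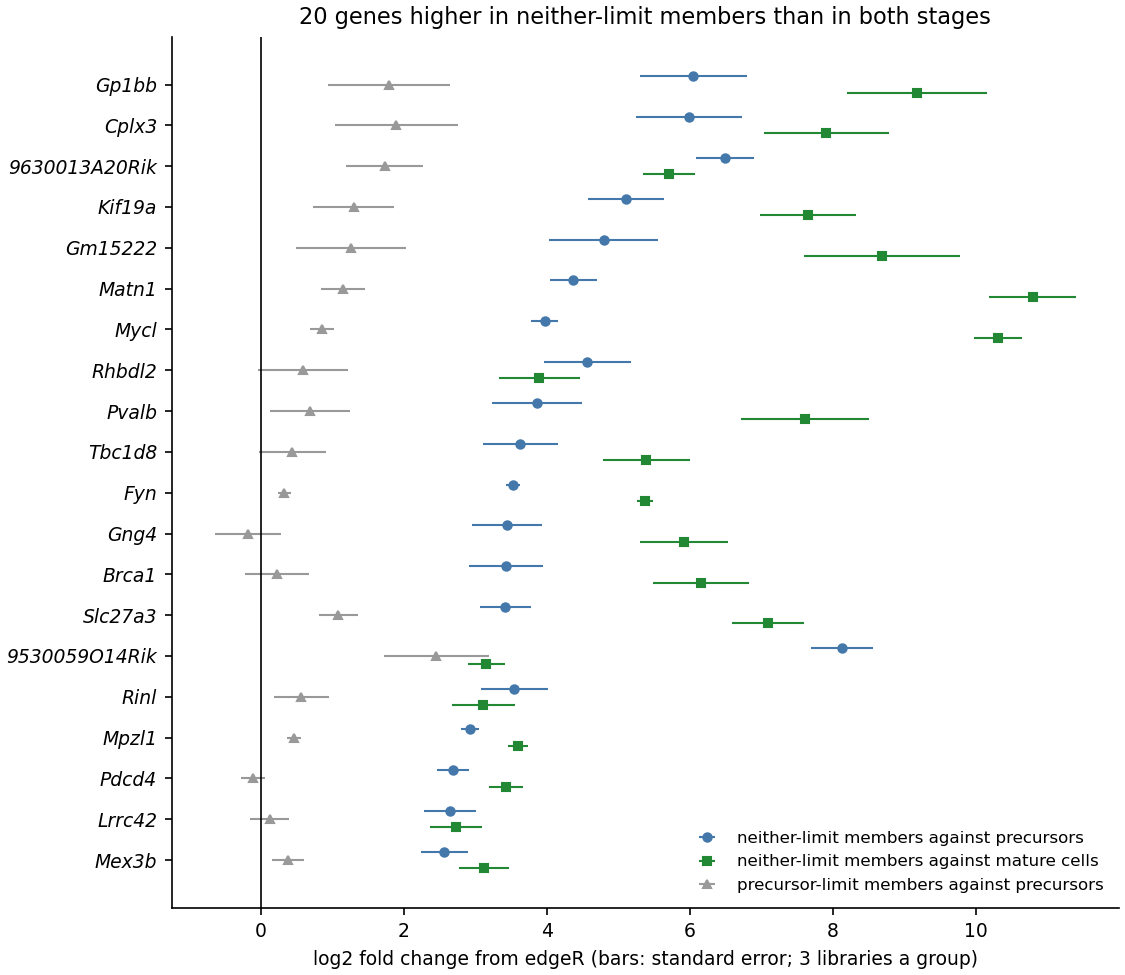
Log2 fold changes (x axis, bars give the SE, edgeR, n = 3 libraries) of the 20 genes by which neither-limit members most exceeded both stages, against precursors (circles) and mature cells (squares), with precursor-limit members against precursors as triangles. Circles and squares all lie to the right of 0, and the triangles lie left of the circle of the same gene. Matn1 had 0 UMIs in mature cells, so its fitted value against them depends on the prior count.

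Transcription factors moved both ways. Of 37 lineage factors tested, 9 were called higher than in precursors and 14 lower, beside 3.76% and 7.62% over all genes. Sox8, a SoxE factor, was 931, 824 and 832 CPM against 237, 247 and 235, a change of 1.75 (SE 0.14, adjusted p = 1.8e-21). Myrf, the factor that drives myelin genes, was 284, 186 and 137 against 29.4, 30.9 and 36.1, a change of 2.46 (SE 0.30, adjusted p = 2.7e-11), and it remained below mature cells with a change of -1.42 (SE 0.20, adjusted p = 8.8e-10). Nkx2-2, Nkx6-2, St18, Tcf7l2, Zeb2 and Zfp488 were also called higher. Nkx6-2 rested on replicate 3 and was at -3.38 (adjusted p = 0.81) without it, and the calls of Tcf7l2 and Zfp488 were lost without replicate 2, at 0.95 (adjusted p = 0.17) and 0.92 (adjusted p = 0.37).

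The factors called lower included Id2, an inhibitor of basic helix-loop-helix factors. It was 51.7, 8.87 and 22.8 CPM in neither-limit members against 468, 443 and 411 in precursors, a change of -4.44 (SE 0.36, adjusted p = 1.9e-20). The Notch targets Hes5 and Hes1 had 2 UMIs each in all neither-limit members, against 1782 and 694 in precursors. Etv1, Etv4 and Etv5, targets of growth factor signalling, and Prrx1 fell as well.

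Of 30 precursor genes tested, 18 were called lower and 1 higher, beside 7.62% and 3.76% over all genes. Their median log2 change was -1.46 beside -0.20 over all genes. Cspg5, a proteoglycan of precursors, was 129, 97.5 and 399 CPM against 4883, 4921 and 4899, a change of -4.57 (SE 0.18, adjusted p = 2.5e-46). Ptprz1, a receptor phosphatase, was 982, 647 and 684 against 3563, 3603 and 3668, a change of -2.38 (SE 0.13, adjusted p = 1.1e-33). The exception was Tnr, at 2560, 2278 and 2187 against 1058, 1152 and 1063, higher in 3 of 3 libraries by 1.02 (SE 0.10, adjusted p = 3.0e-16). It fell under the fold limit without replicate 1 (0.96) and after thinning (0.75). Of 35 commitment genes, a list that was drawn up with earlier results of these data known, 20 were called higher and 1 lower. Over all genes 3.76% were higher and 7.62% lower, and the median of the list was 1.75.

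Myelin genes split. Of 34 tested, 7 were called higher than in precursors, among them Adamts4, Cnp, Cryab, Fa2h, Mbp and Sept4, and 1 lower (Gsn). The shares over all genes were 3.76% higher and 7.62% lower, and the median of the list was 0.07. The call of Sept4, higher in 2 of 3 libraries, was lost without replicate 2 (adjusted p = 0.063) or 3 (adjusted p = 0.51) and after thinning (adjusted p = 0.43), and that of Adamts4 without replicate 3 (adjusted p = 0.22). Cnp, a myelin phosphodiesterase, was 2405, 2535 and 2655 CPM against 177, 186 and 164, a change of 3.77 (SE 0.12, adjusted p = 2.8e-53). In contrast, Opalin, Mobp and Aspa, genes of later myelination, had 0 UMIs in all neither-limit members, while Mobp was 2309, 2320 and 2260 in mature cells and thus at least 183-fold higher there. Against mature cells, 33 myelin genes were called lower and 0 higher, beside 14.8% and 12.2% over all genes.

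Of 16 cell cycle genes tested, 3 were called lower in neither-limit members and 1 higher, beside 7.62% lower and 3.76% higher over all genes. Ccnd1 was 0, 17.7 and 57.0 CPM against 817, 865 and 892 in precursors, a change of -4.93 (SE 0.30, adjusted p = 6.0e-29). Ccnd2, cyclin D2, had 1 UMI against 778, and Top2a, a gene of dividing cells, had 0 UMIs, which makes it at least 2.29-fold lower than in precursors. The call of Top2a was lost with DESeq2 (adjusted p = 0.47), with no replicate block (adjusted p = 0.10) and without replicate 2 (adjusted p = 0.051). Cdkn1c, which blocks the cycle, was the one called higher, at 388, 177 and 239 against 64.4, 70.9 and 64.1, a change of 1.75 (SE 0.25, adjusted p = 1.1e-08).

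In the signalling lists more genes were called lower than higher against precursors, as over all genes (7.62% and 3.76%). Of 16 Notch pathway genes, 9 were called lower, among them Notch1, at 25.9, 53.2 and 79.8 CPM against 184, 193 and 179 (change of -1.73, SE 0.33, adjusted p = 2.2e-05). The target Hey2 was called higher by 1.87 (SE 0.45, adjusted p = 0.00082), at 0, 115 and 114 against 21.9, 31.6 and 20.6, so in 2 of 3 libraries, and the call was lost without replicate 2 (adjusted p = 0.056). Of 16 BMP pathway genes outside the gate, 4 were called lower (Bmp7, Id2, Id3 and Tob1) and 0 higher. Of 17 Wnt pathway genes, Tcf7l2 was called higher and Fzd9, Nkd1 and Wnt7a lower. The call of Tob1 was lost without replicate 1 (adjusted p = 0.072) or 2 (0.18) and after thinning (0.23). Nkd1 moved from -2.08 to -1.23 (adjusted p = 0.22) without replicate 2, and neither it (0.13) nor Wnt7a (0.070) was called after thinning. Of 34 genes of glutamate and GABA receptors and ion channels, 14 were called lower and 0 higher. Grm5, a metabotropic glutamate receptor, was 103, 115 and 22.8 against 164, 204 and 167, a change of -1.26 (SE 0.31, adjusted p = 0.0011) that did not pass without replicate 3 (-0.84, adjusted p = 0.098).

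Genes of the cytoskeleton moved both ways, 11 called higher and 9 lower of 39, beside 3.76% and 7.62% over all genes. Tuba1a, an alpha-tubulin, was 6360, 5674 and 5378 CPM against 1149, 1248 and 1161 in precursors, a change of 2.19 (SE 0.09, adjusted p = 1.0e-43), and it was 913, 974 and 919 in mature cells. Tmsb4x, an actin-binding thymosin, was 8739, 9663 and 8511 against 1667, 1608 and 1604, a change of 2.39 (SE 0.09, adjusted p = 5.2e-47). Map1b was 1112, 833 and 718 against 126, 142 and 125, a change of 2.62 (SE 0.16, adjusted p = 1.4e-28). Tuba1a and Map1b also exceeded mature cells, by 1.90 (SE 0.09) and 2.02 (SE 0.15). Tmsb4x was 4792, 4841 and 4616 in mature cells and was not called there, with a change of 0.22 (SE 0.09).

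Genes of adhesion and axon guidance moved both ways as well. Of 33 tested, 6 were called higher in neither-limit members than in precursors (Cntn2, Epha4, Ncam1, Nfasc, Sema4d and Tnr) and 6 lower, among them the netrin gene Ntn1 and its receptor Dcc, again beside 3.76% and 7.62% over all genes. The call of Dcc was lost without any one library (adjusted p from 0.076 to 0.23) and that of Cntn2 without replicate 1 (0.11). After thinning Cntn2 (0.78), Ntn1 (0.074) and Sema4d (0.075) were not called. Of 23 genes of sphingolipid and very long chain lipid synthesis, 4 were called higher than in precursors and 2 lower, beside the same 3.76% and 7.62%. Fa2h, the fatty acid hydroxylase of myelin lipids, was among the higher ones. Against mature cells 11 of those lipid genes were called lower and 0 higher, among them Ugt8a, which makes galactosylceramide. Over all genes 14.8% were lower and 12.2% higher there, a split that turned with other scaling, as given above. Of 29 genes of purinergic, lipid and cyclic AMP signalling, 0 were called higher than in precursors and 5 lower. Those shares were 3.76% and 7.62% over all genes, and the lower genes included the adenosine receptors Adora1 and Adora2b.

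**Figure D5:**
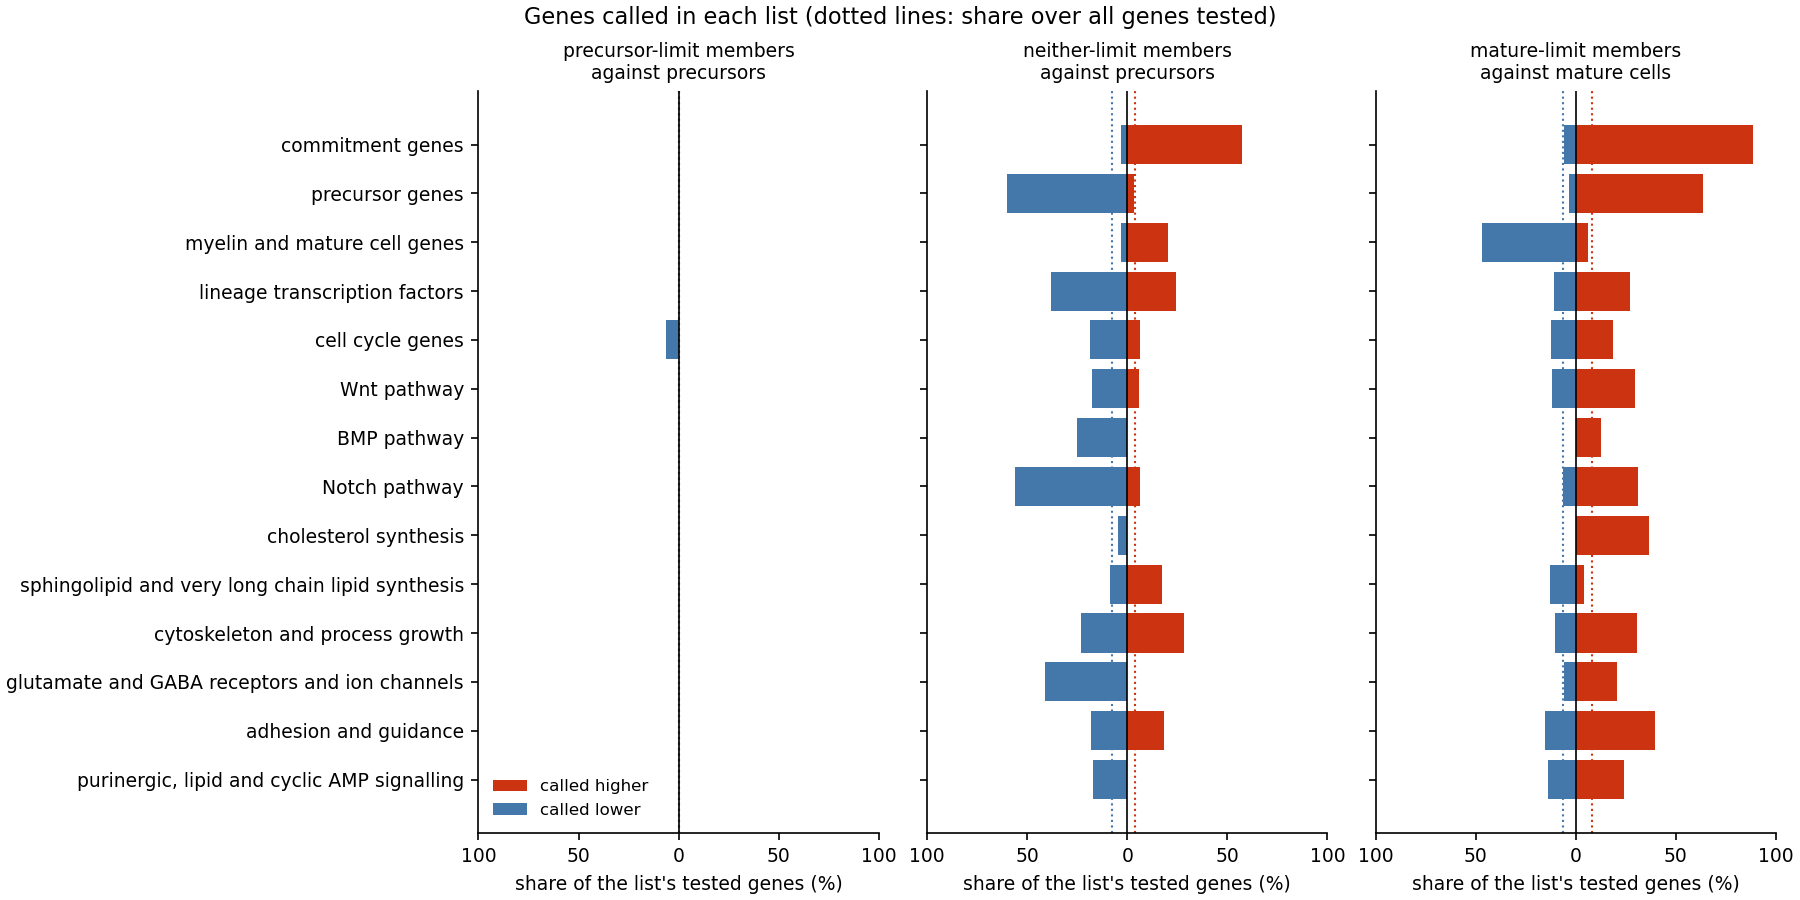
Share (%) of each list's tested genes called higher (right) or lower (left) by edgeR in precursor-limit members against precursors, neither-limit members against precursors and mature-limit members against mature cells, with dotted lines at the share over all genes tested. In neither-limit members 18 of 30 precursor genes were called lower and 20 of 35 commitment genes higher, and in mature-limit members 16 of 34 myelin genes were called lower.

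The 85 mature-limit members differed from the mature cells at 1451 genes (14.5%), 838 higher (8.36%) and 613 lower (6.12%). The median mature-limit cell held more UMIs than the median mature cell, as given above. With every cell thinned to 2000 UMIs, 889 genes were called, 370 higher and 519 lower, so the split turned. With plain library totals it was 1076 higher and 317 lower. Against neither-limit members 1580 genes were called (15.8%), 977 higher (9.75%) and 603 lower (6.02%), and DESeq2 called 733 higher and 698 lower. Plain library totals turned that split, with 609 higher and 1113 lower.

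Apart from Klk6 and Cldn14, no myelin gene of the list was called higher in mature-limit members than in mature cells. Cnp was 6125, 7542 and 6870 CPM against 5382, 5444 and 5279 in mature cells, a change of 0.09 (SE 0.08, adjusted p = 0.43), and Mobp was 2115, 1900 and 2904. Opalin, at 700, 589 and 1030 against 1591, 1582 and 1489, was lower with a change of -1.28 (SE 0.09, adjusted p = 5.5e-25), and Mal, a lipid raft protein of compact myelin, at 1236, 1922 and 2149 against 5311, 5378 and 4898, with -1.83 (SE 0.10, adjusted p = 9.3e-35). DESeq2 did not call Mal (adjusted p = 0.19). Over the list, 16 myelin genes were called lower than in mature cells and 2 higher (Klk6 and Cldn14, the latter not called without replicate 3, adjusted p = 0.088). Over all genes 6.12% were lower and 8.36% higher. Against neither-limit members 33 myelin genes were called higher, beside 9.75% over all genes.

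Other genes were far above the mature level. 9630013A20Rik was 1145, 1373 and 786 CPM in mature-limit members. It was 284, 248 and 273 in neither-limit members and 6.15, 1.46 and 1.14 in mature cells, without overlap, and the log2 changes were 2.51 (SE 0.17, adjusted p = 9.9e-27) and 8.22 (SE 0.15, adjusted p = 7.1e-82). Nfasc, the axon-glial adhesion protein neurofascin, was 3220, 3658 and 2625 against 724, 417 and 285 in neither-limit members and 415, 436 and 427 in mature cells, higher by 3.35 (SE 0.14, adjusted p = 3.8e-44) and 2.63 (SE 0.08, adjusted p = 2.1e-59). Tcf7l2, a Wnt effector with a known role in oligodendrocyte differentiation, was 591, 614 and 408, above neither-limit members by 1.98 (SE 0.20, adjusted p = 9.4e-15) and mature cells by 3.56 (SE 0.12, adjusted p = 1.4e-54).

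Prom1, a membrane protein of cell protrusions, had 0 UMIs in neither-limit members and was 148, 133 and 119 CPM in mature-limit members, at least 10.6-fold higher, a difference that was not called after thinning (adjusted p = 0.060). It exceeded mature cells, at 4.44, 1.09 and 0.379, by 5.73 (SE 0.32, adjusted p = 2.6e-32). Tmem2, a cell-surface hyaluronidase, was uneven among libraries at 33.3, 343 and 163, and Cnksr3 likewise at 170, 541 and 105. Both were still higher than in mature cells in 3 of 3 libraries, by 6.70 (SE 0.35, adjusted p = 3.8e-35) and 4.91 (SE 0.21, adjusted p = 6.7e-44).

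Some cholesterol synthesis genes called in this group lost their calls after thinning, and the part of depth was not tested. Of 22 tested, 8 were called higher than in mature cells, among them Hmgcs1, Hsd17b7, Mvd and Sqle, and 0 lower. The shares over all genes were 8.36% and 6.12%, and the median of the list was 0.66 beside -0.10 over all genes. Against neither-limit members 20 were called higher, beside 9.75% over all genes. Hmgcs1, HMG-CoA synthase, was 367, 580 and 483 CPM against 168, 144 and 163 in mature cells, a change of 1.34 (SE 0.10, adjusted p = 3.4e-22). With all cells thinned to 2000 UMIs Hmgcs1 was at 0.40 (adjusted p = 0.29), Mvd at 1.57 (adjusted p = 0.12) and Sqle at -0.36 (adjusted p = 0.80), and none of these was called. In neither-limit members 0 of the 22 were called higher than in precursors and 1 lower, beside 3.76% and 7.62% over all genes. Against mature cells 12 were called lower in those members, beside 14.8% over all genes.

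The mature-limit members were themselves of 2 kinds by Gpr17, a gate gene, so their values are given without a test. In 51 cells with a Gpr17 UMI (19, 18 and 14 per library), 9630013A20Rik was 1538 CPM, Fyn 1892, Nfasc 4349, Prom1 188 and Tcf7l2 742. In the 34 cells without one (13, 8 and 13), all of which had Enpp6, 9630013A20Rik had 0 UMIs, Fyn was 74.7, and Klk6, a secreted protease of mature oligodendrocytes, was 606, against 0 in the cells with Gpr17. Etv1 was 788 in cells without Gpr17 and 11.0 in those with it. The cells without Gpr17 had reached the gate on Enpp6 with a median of 5 trio UMIs, and the cells with it had a median of 32.

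By the other 2 markers, 88 gated cells led with Enpp6 and 44 with Bmp4, where leading means at least 2 UMIs and more than the other gene. Replicate 1 had 7 Bmp4-leading cells, under the minimum of 10 set for a test, and none was run.

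Viral barcode UMIs were seen in few gated cells. They were found in 5.50%, 4.05% and 8.60% of gated cells, 6.05% ± 2.32 (SD, n = 3). Their median depth was 4750 UMIs, and thinning every cell to 2000 UMIs left 2.60% ± 1.50. Microglia of the same libraries, which serve as a background, had 3.90% ± 0.413, endothelial cells 3.14% ± 0.844, precursors 3.28% ± 1.06 and the study's excitatory neurons 58.8% ± 2.03. In neither-limit members 8 of 48 cells had a viral UMI (17.0% ± 5.94), and 3 of 42 after thinning. All 3 were in replicate 3, and the thinned share of 5.88% ± 10.2 overlapped the microglia at 1.73% ± 0.244. Both the neither-limit and the mature-limit group (8 of 85 cells) were above the background share before thinning, and the mature-limit share of 2.28% ± 1.99 after thinning overlapped it as well. Infection of these cells was not tested.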

How the data were processed

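Single-cell RNA-seq libraries (10x Genomics, version 3 3' chemistry) of 3 mice were analysed, with a sorted library of 3 pooled mice set apart. The deposited values were raw UMI counts per gene and cell barcode, which the authors made with Cell Ranger (3.0.2 per the file headers) on mm10 with an added viral feature; the deposited table of excitatory neurons was used only to leave those cells out. Seurat 3.1.4 and Scanpy 3.0.46 are named in the submitters' processing notes, as versions stand there. Counts were summed per library and group, giving 239249 to 2189135 UMIs for the gated groups over the 3 libraries. They were tested with edgeR 4.0.16 (R 4.3.3): TMM scaling, filterByExpr, quasi-likelihood F test, and the library as a block because all groups of a library share its cell suspension. A gene was called where its adjusted p (Benjamini-Hochberg) lay under 0.05 and its log2 change had a size of 1 or more. The planned model held gated cells, precursors and mature cells.

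Gate genes and the viral feature were left out of the tested genes but kept in library sizes. DESeq2 1.42.0, plain library totals in place of TMM (chosen after seeing the data), other filters and gates, thinning to 2000 UMIs per cell and leaving out a library were alternatives. The code was checked on simulated counts. Named genes were the 10 highest and 10 lowest called genes with 1 direction in 3 of 3 libraries and at least 50 CPM, and the 20 that most exceeded both stages; genes of the listed pathways were also named. The members, gene lists and tests were chosen with earlier results of these data known. CPM values are not corrected for gene length, so levels are compared between groups, not between genes. In these summed values, fewer molecules per cell and fewer cells holding a gene cannot be told apart. Floors for a count of 0 use 3 UMIs over a group, and the intervals given (95%, exact binomial) cover counting error only.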

Additional observations from a re-analysis of the deposited data

Results flagged for a closer look

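Of 1791 filtered cells of the sorted library, which entered no comparison, 7 passed the same gate, a share of 0.391% (95% exact binomial interval 0.157% to 0.804%). They drew attention because a sort for EGFP-labelled neurons held cells with the markers of this lineage. All 7 met the mature limit, 6 had Enpp6 and 6 had Gpr17, and 1 had a viral barcode UMI. Their median depth was 32134 UMIs, beside 9345 in the mature-limit members of the unsorted libraries. The sorted library also held 8 cells that met the gate of the mature cells.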

How the results depend on the processing

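The comparison of gated cells with precursors depended most on the gate. Its 637 calls became 266 with cells thinned to 2000 UMIs, 1254 with a gate of at least 8 UMIs, 2748 with at least 20 (chosen after seeing the data) and 1109 (398 higher and 711 lower) with cells between the stages left out, where only the 48 neither-limit members remained. Leaving out 1 library gave 591 to 614 calls there and 3705 to 3790 against mature cells, and without the replicate block there were 631 and 3744. The 5 calls between precursor-limit members and precursors became 1 with DESeq2, 11 with no filter on low counts, 2 with no replicate block, 1 with a stricter gate against other cell types, 0 after thinning (422 genes at an unadjusted p under 0.05) and 1 to 2 without 1 library. Neither-limit members gave 532 calls against precursors after thinning and 711 to 948 without 1 library, and 1761 against mature cells after thinning. Mature-limit members gave 889 against mature cells and 567 against neither-limit members after thinning. The block changed no other count by more than 1.5 times (1136, 2702, 1451 and 1563 without it). With DESeq2 in place of edgeR, the median log2 change of all genes between neither-limit members and mature cells moved from -0.16 to 0.0048. Plain library totals in place of TMM kept each count of calls within 1.5 times of the reported one but moved the splits against mature cells, as given beside them.

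The share of filtered cells was 2.27% with the stricter gate, 5.95%, 1.22% and 0.414% with at least 3, 8 and 20 UMIs, 0.250% with cells between stages left out and 0.798% with the gate applied after thinning. The share of lineage cells was 16.5%, 34.3%, 7.92%, 2.83%, 1.74% and 4.99% in that order, and 26.0% with mitochondrial UMIs under 10%. The share with a viral UMI was 2.60% after thinning. Of 106 named gene results, 3 reversed in sign: Nkx6-2 in neither-limit members against precursors without replicate 3 (range without 1 library -3.38 to 4.67), Zfp488 there after thinning (-0.038), and Sqle in mature-limit members against mature cells after thinning (-0.36). The causes were not tested. The alternatives for Enpp6-leading against Bmp4-leading cells were not run because the comparison itself was not. Depth limits the neither-limit members most, with 239249 UMIs in all, so that a gene at 0 there could lie as high as 12.5 CPM.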
